A study of Mus musculus with 9 samples.

Results

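The genes described here are those of 3 groups of guidance cues with their receptors: semaphorins with plexins and neuropilins, ephrins with Eph receptors, and netrins with their receptors. They were chosen by symbol (Sema, Plxn, Efna, Efnb, Unc5, Epha or Ephb at its start, or Nrp1, Nrp2, Ntn1, Ntn3, Ntn4 or Dcc), and 63 of the 18193 genes measured met that rule. Of these, 60 encode guidance ligands or receptors: 7 class 3 semaphorins, 13 other semaphorins, 2 neuropilins, 9 plexins, 5 ephrin-A and 3 ephrin-B ligands, 9 EphA and 4 EphB receptors, 3 netrins and 5 netrin receptors. The other 3 matched by prefix alone: Plxna4os1, an antisense transcript, Unc50, a gene outside the netrin receptors, and Unc5cl, an intracellular relative of them.

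RNA came from mouse hearts at 2 months of age on a C57BL/6 background, with 3 arrays per group and 9 in all. The mutant right atria carried Myh6-cre and 2 floxed alleles of COUP-TFII (Nr2f2, a nuclear receptor), so that the gene is removed where the Myh6 promoter is active, which is in cardiomyocytes. The control ventricles and control right atria came from COUP-TFII flox/flox mice without Cre, and the presence of Cre and the deletion cannot be told apart as sources of a difference. Values are log2 intensities of 1 Affymetrix probe set per gene. Differences are given on the log2 scale with their SE. They come from limma, fitted to the 3 groups of 3 arrays together, and a gene was called at an adjusted p of at most 0.05 over all genes. The labels call the arrays biological replicates without saying more of the animals, so p-values measure the spread between these samples.

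Guidance cues are secreted or membrane-bound proteins that attract or repel growing axons, migrating cells and vessel sprouts. Class 3 semaphorins are secreted and bind neuropilins, which hand the signal to plexins; most other semaphorins bind plexins directly. Ephrins are held in the membrane and signal on cell contact into the cell that bears the Eph receptor and back into the ephrin-bearing cell. Netrins attract through Dcc and repel through Unc5 receptors. In the heart these families are known for the patterning of nerves, vessels and the outflow tract, and Sema3a is known as a repellent of sympathetic axons in the ventricular wall.

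COUP-TFII and its relatives bind repeats of the half-site AGGTCA. The 250 bases before an annotated start (RefSeq, GRCm38.p6) are shown for genes that changed most or that hold this motif, 5′ to 3′ along the gene, with matches to AGGTCA or its reverse complement TGACCT in capitals. Sema3a and Epha3 are shown as the largest rise and the largest fall in mutant atria. Sema5a, Nrp1 and Plxnb2 are 3 of the 4 genes that were called higher there and hold a match. Plxnb2 has a further window, at chr15:89180789-89181038, with no match. Sema4d, the other gene called higher, holds a match in 1 of its 3 windows and is not printed. It was called through the probe set used only, and its other probe sets gave 0.00 and 0.01.
Sema3a (chr5:13396534-13396783, + strand): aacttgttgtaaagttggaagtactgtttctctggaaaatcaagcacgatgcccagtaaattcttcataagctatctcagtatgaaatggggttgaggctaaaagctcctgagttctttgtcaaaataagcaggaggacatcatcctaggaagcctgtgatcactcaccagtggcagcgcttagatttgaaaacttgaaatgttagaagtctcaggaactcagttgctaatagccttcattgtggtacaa
Sema5a (chr15:32244563-32244812, + strand): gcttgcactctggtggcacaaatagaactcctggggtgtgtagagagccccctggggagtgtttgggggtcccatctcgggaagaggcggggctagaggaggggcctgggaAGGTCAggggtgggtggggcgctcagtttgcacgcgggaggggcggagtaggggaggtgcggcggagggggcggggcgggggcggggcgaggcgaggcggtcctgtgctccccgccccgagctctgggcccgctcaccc
Nrp1 (chr8:128358823-128359072, + strand): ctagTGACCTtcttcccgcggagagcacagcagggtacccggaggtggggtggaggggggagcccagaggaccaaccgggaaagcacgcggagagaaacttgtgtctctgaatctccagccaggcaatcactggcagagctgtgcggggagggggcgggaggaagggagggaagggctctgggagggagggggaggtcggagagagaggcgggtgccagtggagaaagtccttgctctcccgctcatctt
Plxnb2 (chr15:89173952-89174201, − strand): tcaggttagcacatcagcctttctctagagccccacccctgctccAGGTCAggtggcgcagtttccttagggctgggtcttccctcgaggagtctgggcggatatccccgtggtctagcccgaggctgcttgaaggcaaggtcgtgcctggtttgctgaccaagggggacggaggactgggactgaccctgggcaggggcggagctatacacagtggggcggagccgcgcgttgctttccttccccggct
Epha3 (chr16:63864176-63864425, − strand): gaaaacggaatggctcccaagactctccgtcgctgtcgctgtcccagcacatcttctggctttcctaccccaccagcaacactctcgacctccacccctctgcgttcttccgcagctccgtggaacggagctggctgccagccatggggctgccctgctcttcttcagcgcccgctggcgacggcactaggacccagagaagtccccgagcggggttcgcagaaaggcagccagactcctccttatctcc

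Such windows were matched for 53 of the 63 genes, 67 windows in all, of which 9 (13.4%) held the 6-base motif on either strand, against 14% of all 32851 windows. Among the 9 genes that held it, 4 were called higher in mutant atria, 0 lower and 5 were not called. Of the 53 matched genes, 11 were called higher, 9 lower and 33 not. A match is a description of these letters only, and single half-sites are common in windows of this length.

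Array medians were 80.9 to 83.4 intensity units. The 3' minus 5' log2 difference of Gapdh probe sets, a sign of RNA quality, was 0.214 to 0.304 in mutant atria, 0.153 to 0.227 in ventricles and 0.345 to 0.364 in control atria, with the control atria apart from both. The groups also differed in Y-linked transcripts, of which 3 averaged 3.73, 8.84 and 8.84 in mutant atria, 3.85, 3.78 and 3.81 in ventricles, and 5.22, 8.81 and 8.33 in control atria, so that all ventricle arrays were low. Nr2f2 itself stood at 6.82, 6.62 and 6.82 in mutant atria, 5.96, 5.34 and 5.74 in ventricles, and 7.53, 7.66 and 7.29 in control atria. Whether this probe set lies in the deleted part is not given. The 5 atrial cardiomyocyte markers averaged 13.18 to 13.92 in mutant atria, 7.25 to 8.69 in ventricles and 14.58 to 14.62 in control atria, and the 4 ventricular markers averaged 11.66 to 12.06 in mutant atria, 12.33 to 12.59 in ventricles and 8.90 to 9.23 in control atria. Markers of other tissues differed too. All 8 hepatocyte markers were called lower in mutant atria (mean 5.61 to 5.67, against 8.08 to 10.58 in control atria), as were all 8 mesothelial markers (mean 8.0 to 8.11 in mutant atria, against 9.35 to 9.65 in control atria). In ventricles the hepatocyte list averaged 5.34 to 5.49 and the mesothelial list 6.67 to 6.97. Of 8 smooth muscle and pericyte markers 6 rose and 1 fell in mutant atria (mean 9.77 to 9.87, against 9.46 to 9.65 in control atria), of 5 macrophage markers 3 rose (10.24 to 10.65 against 9.92 to 10.17), and of 4 lymphatic markers 2 fell (8.72 to 8.96 against 9.23 to 9.26). In ventricles the means were 10.04 to 10.34 for smooth muscle and pericytes, 9.18 to 9.63 for macrophages and 8.62 to 8.69 for lymphatic endothelium. Of 6 neuronal markers 1 was called, Uchl1, which rose. The neuronal list averaged 6.32 to 6.44 in mutant atria, 6.06 to 6.21 in ventricles and 5.92 to 6.11 in control atria. Of 5 fibroblast markers 1 was called, higher in mutant than in control atria, and all 5 differences were positive. Fibroblast means were 11.68 to 11.77 in mutant atria, 10.57 to 10.81 in ventricles and 11.36 to 11.46 in control atria. Of 3 Schwann cell markers 0 were called in mutant against control atria (6.92 to 7.04 against 6.71 to 6.9). The part of these markers and of RNA quality in the results below was not tested beyond the fits named. In bulk tissue, fewer cells of a type and less RNA per cell cannot be told apart.

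In mutant against control atria, 23 of the 63 guidance genes changed (36.5%), 13 higher and 10 lower, while 17.5% of all genes were called (7.76% higher, 9.79% lower). At least 2-fold changes were found for 4 higher genes and 2 lower ones, against 0.89% and 1.33% of all genes. The largest rises were of the repellents Sema3a and Sema3b, the receptor Ephb1 and the membrane semaphorin Sema5a. The largest falls were of the receptor Epha3 and the ligand Efnb3. The median difference over the 63 genes was 0.06, beside 0.03 over all genes, and the median absolute difference 0.18, beside 0.14. The groups of 3 arrays did not overlap for 29 genes, and for 37.8% of all genes. With the mean hepatocyte level as a covariate 0 of the 23 calls remained, although 22 kept their sign. This covariate is high in control atria and low in the other groups, and with it the median SE was 0.234, against 0.0879 without it. In mutant atrium against ventricle, where the hepatocyte list was low in both groups, 27 genes were called with it and 27 without: Plxna3 gained a call (0.33, adjusted p = 0.00886) and Sema6c lost its call (-0.27, adjusted p = 0.0517).

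**Figure D1:**
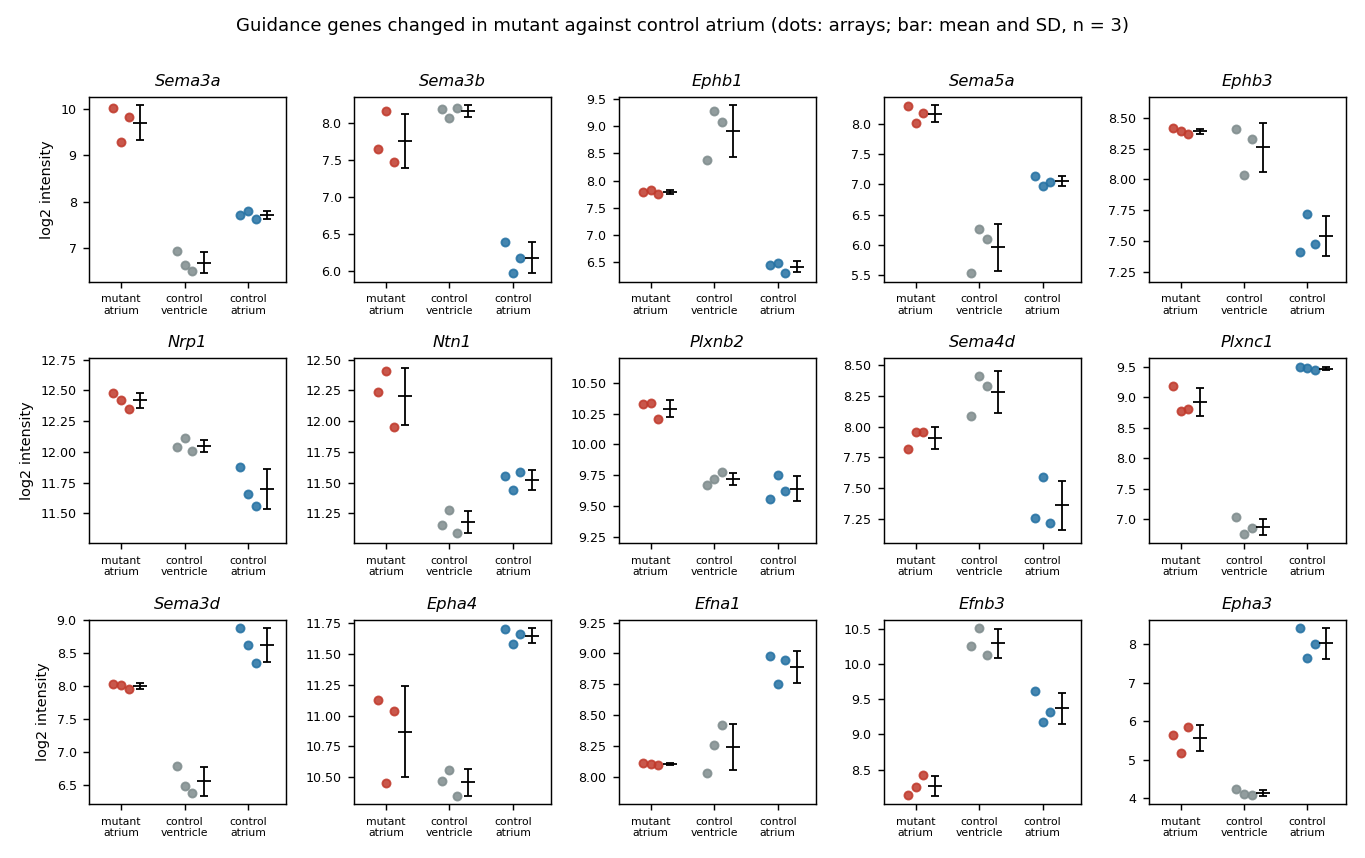
Log2 intensity on each array (dots) for the 15 guidance genes called in mutant against control atrium with a log2 difference of at least 0.5 in size, ordered from the largest rise to the largest fall, with the mean and SD of 3 arrays as a bar. Each panel has its own scale. In the panel of Sema3a the mutant atria (9.30 to 10.02) lie above the ventricles (6.50 to 6.95) and the control atria (7.62 to 7.80), and in that of Epha3 the mutant atria (5.18 to 5.84) lie between them.

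Among the class 3 semaphorins, 2 rose, 1 fell and 4 did not pass the test in mutant against control atria. Sema3a stood at 10.02, 9.30 and 9.82 in mutant atria, 6.95, 6.63 and 6.50 in ventricles, and 7.71, 7.80 and 7.62 in control atria. The mutant atria were the highest group and the ventricles the lowest, with no overlap. Sema3a was 4.0-fold higher in mutant than in control atria (2.00 ± 0.18, adjusted p = 0.000101) and 8.11-fold higher than in ventricles (3.02 ± 0.18, adjusted p = 4.09e-06), while ventricles lay below control atria (-1.02 ± 0.18, adjusted p = 0.00111). All 3 probe sets of Sema3a gave the same order, with rises of 1.94 to 2.50.

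Sema3b, whose product also acts through neuropilins, showed another order. It stood at 7.65, 8.17 and 7.48 in mutant atria, 8.19, 8.07 and 8.21 in ventricles, and 6.39, 5.98 and 6.18 in control atria. It was 2.99-fold higher in mutant than in control atria (1.58 ± 0.17, adjusted p = 0.000304) and 3.94-fold higher in ventricles than in control atria (1.98 ± 0.17). Its other probe sets gave smaller rises in mutant atria, 0.90 ± 0.16 (adjusted p = 0.00604) and 0.43 ± 0.14 (0.0784, not called). In ventricle against control atrium they gave 1.32 ± 0.16 and 0.69 ± 0.14, both called. The mutant atria and the ventricles overlapped, and their difference was not called (-0.40 ± 0.17, adjusted p = 0.0971). It was called with quantile normalisation (-0.50, adjusted p = 0.0385), median centring (-0.50, 0.0352), averaging over its probe sets (-0.36, 0.0448) and on leaving out mutant replicate 2 (-0.60, 0.00676).

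Sema3d, known from mouse embryos for keeping pulmonary veins in their place, was the class 3 gene that fell. It read 8.03, 8.01 and 7.95 in mutant atria, 6.79, 6.48 and 6.38 in ventricles, and 8.88, 8.62 and 8.35 in control atria. The 3 groups were apart, with mutant atria between the others: the fall from control atria was 0.62 ± 0.14 in size (adjusted p = 0.015), and ventricles lay 2.07 ± 0.14 below control atria. Leaving out mutant replicate 3 ended the call (-0.60, adjusted p = 0.051). Its second probe set gave -0.19 ± 0.12, and its sign turned with the hepatocyte covariate (0.18, adjusted p = 0.904).

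Sema3c, a cue for neural crest cells that enter the outflow tract, was not called in mutant atria (0.15 ± 0.10, adjusted p = 0.305), where it read 9.74, 9.92 and 9.92, against 9.91, 9.66 and 9.56 in control atria. In ventricles it read 9.45, 9.36 and 9.39, below the control atria (-0.31 ± 0.10, adjusted p = 0.0231), a call that ended on leaving out control atrium replicate 1, ventricle replicate 2 or ventricle replicate 3 (adjusted p = 0.0712, 0.065 and 0.0547). Sema3g, a class 3 semaphorin of vessels, set the chambers apart: it stood at 7.17, 6.79 and 7.22 in mutant atria, 7.74, 7.79 and 7.96 in ventricles, and 6.76, 7.15 and 6.74 in control atria. The ventricles were above both atrial groups, by 0.94 ± 0.14 over control atria (adjusted p = 0.000467). Sema3e, which binds Plxnd1 without a neuropilin, was lower in ventricles (4.74, 4.55 and 4.53) than in control atria (5.53, 5.0 and 5.23), by 0.65 ± 0.13 in size, and gave 4.81, 4.83 and 4.98 in mutant atria, where the difference of -0.38 ± 0.13 did not pass (adjusted p = 0.0642). It passed with quantile normalisation (adjusted p = 0.0424) and without control atrium replicate 2 (0.0242). The ventricle values of Sema3e lay below the 25th percentile of all probe sets on their arrays (4.90 to 4.92). Its other probe sets gave -0.32, -0.13 and 0.10 in ventricle against control atrium, and only the first was called (adjusted p = 0.0413). Sema3f was not called in the 3 comparisons (0.10 ± 0.07 in mutant against control atria), although its ventricle against control atrium difference passed with quantile normalisation (0.25, adjusted p = 0.023) and median centring (0.24, 0.0172).

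Of the 13 semaphorins of classes 4 to 7, 4 rose, 2 fell and 7 did not pass in mutant against control atria. Sema5a, a membrane protein that can attract or repel, had the same order of groups as Sema3a. It stood at 8.29, 8.01 and 8.18 in mutant atria, 5.53, 6.26 and 6.10 in ventricles, and 7.13, 6.97 and 7.03 in control atria, with no overlap between groups. It was 2.17-fold higher in mutant than in control atria (1.11 ± 0.17, adjusted p = 0.00214) and 2.20 ± 0.17 above the ventricles on the log2 scale. A second probe set rose as well (0.68 ± 0.15), and 2 dim ones did not change (0.04 and 0.06).

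Sema4d, a ligand of Plxnb1 with roles in immune cells and vessels, stood at 7.82, 7.96 and 7.96 in mutant atria, 8.09, 8.41 and 8.33 in ventricles, and 7.26, 7.59 and 7.22 in control atria. The mutant atria lay between both control tissues (0.56 ± 0.12 over control atria, adjusted p = 0.0116, and -0.37 ± 0.12 against ventricles, adjusted p = 0.0377). Its probe sets disagreed: the next brightest gave 0.00 ± 0.17 in mutant against control atria and -0.85 ± 0.17 in ventricle against control atrium, where the one used gave 0.92 ± 0.12. Averaged over its probe sets, the mutant rise did not pass (0.19, adjusted p = 0.122) and the difference from ventricles turned to 0.12. No direction of Sema4d is therefore common to its probe sets.

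Sema6d, a ligand of Plxna1 known in heart tube formation of the chick, read 10.90, 10.84 and 11.03 in mutant atria, 10.01, 9.82 and 9.88 in ventricles, and 11.24, 11.43 and 11.26 in control atria. The atria of both genotypes were far above the ventricles, by 1.40 ± 0.08 for control atria (adjusted p = 1.32e-06), and mutant atria fell by 0.38 ± 0.08 from control atria (adjusted p = 0.0123). That fall passed neither when mutant replicate 2 was left out (adjusted p = 0.0502) nor averaged over 4 probe sets (-0.11, adjusted p = 0.414). Sema7a, a membrane-anchored ligand of Plxnc1, was higher in ventricles (8.60, 8.19 and 8.86) than in mutant atria (6.96, 7.84 and 7.28) and control atria (7.34, 7.33 and 7.22). The 2 atrial groups overlapped (0.06 ± 0.22), and ventricles were 1.25 ± 0.22 above control atria (adjusted p = 0.00113). Its second, dim probe set was not called in ventricle against control atrium (0.27 ± 0.12, adjusted p = 0.0875). Nor was it in mutant atrium against ventricle (-0.19 ± 0.12, 0.272).

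The remaining class 4 calls in mutant atria were smaller, and these genes are given because they passed. Sema4c, a ligand of Plxnb2, was the lowest in mutant atria (7.41, 7.27 and 7.10, against 8.02, 7.87 and 8.08 in ventricles and 7.86, 7.70 and 7.70 in control atria), with a fall of 0.49 ± 0.09 from control atria (adjusted p = 0.00748). Sema4a rose by 0.49 ± 0.13 (adjusted p = 0.0276), which ended on leaving out mutant replicate 2 (adjusted p = 0.0706) or replicate 2 or 3 of the control atria (0.0825 and 0.0745), and Sema4f by 0.32 ± 0.06 (adjusted p = 0.00753), or by 0.29 averaged over its probe sets (adjusted p = 0.0502, not called). In ventricle against control atrium, Sema6a (0.46 ± 0.11), Sema6c (0.48 ± 0.09) and Sema4f (0.42 ± 0.06) were higher. Sema4b, Sema4g, Sema5b and Sema6b were not called in the 3 comparisons. With median centring Sema5b (0.41, adjusted p = 0.0124) and Sema6b (0.34, 0.0164) were called higher in ventricle against control atrium. Sema5b was also called there with the mean of all probe sets (0.31, 0.0104) and without ventricle replicate 3 (0.41, 0.00737), which also made it lower in mutant atrium against ventricle (-0.29, 0.0441). Sema6b passed without control atrium replicate 3 as well (0.29, 0.0203).

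**Figure D2:**
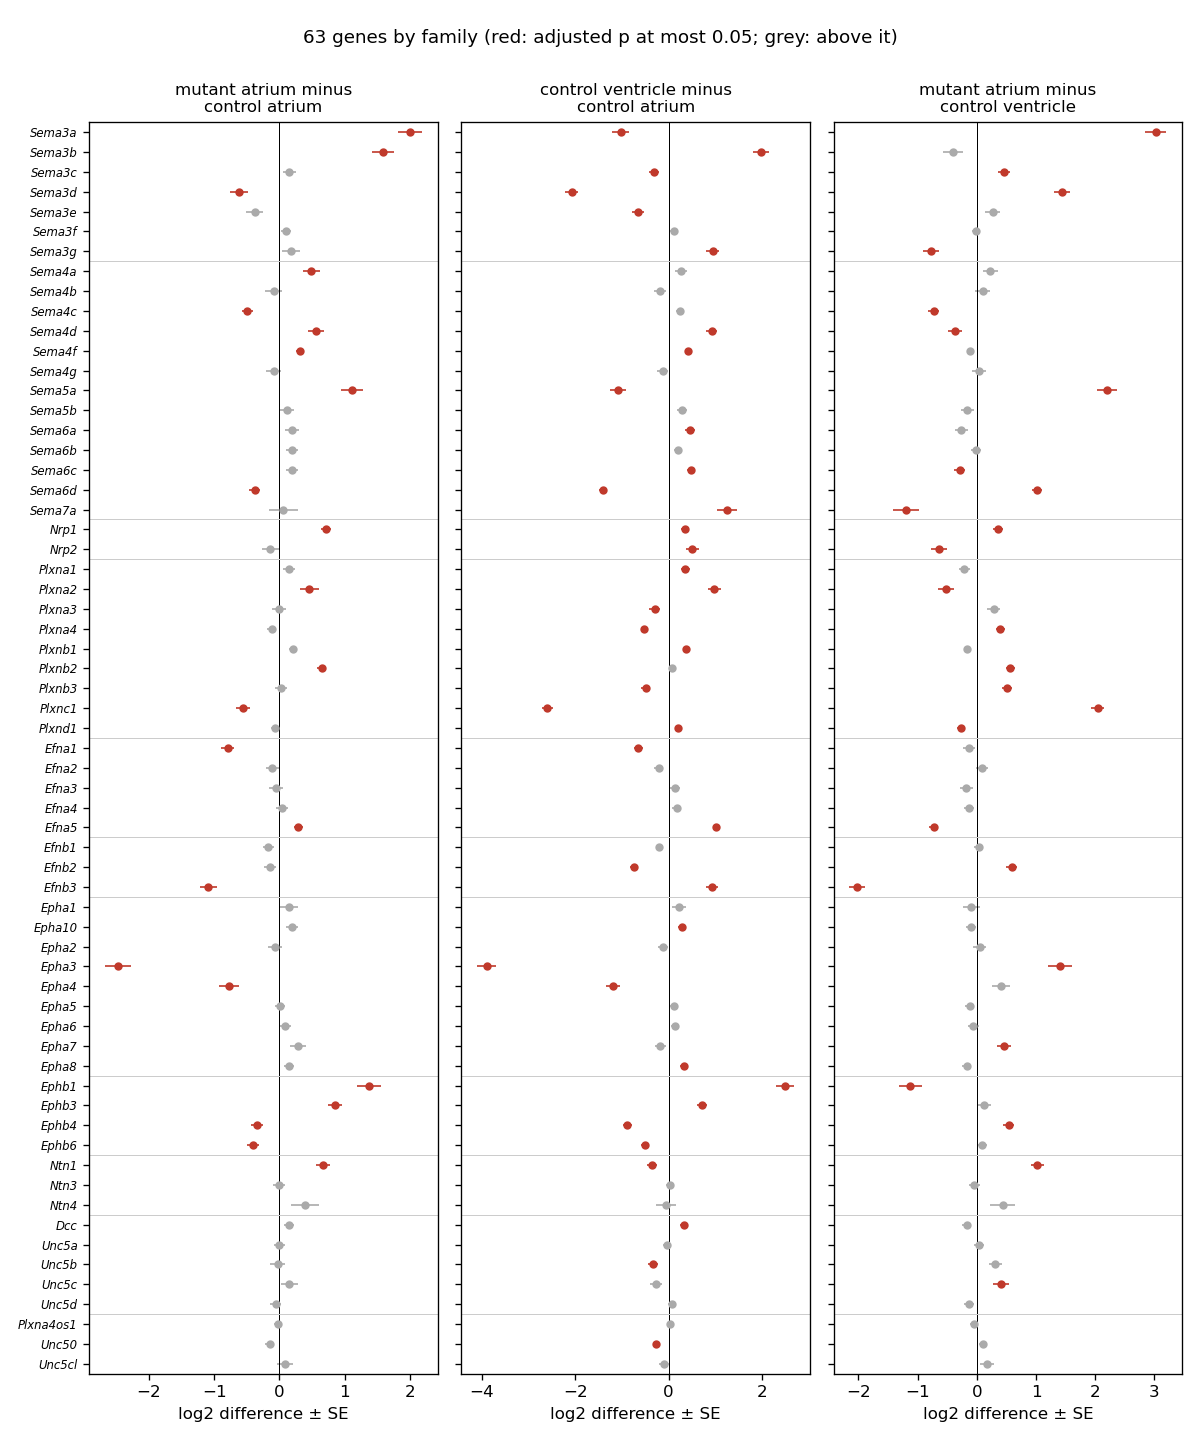
Log2 difference ± SE of all 63 genes, grouped by family from the class 3 semaphorins at the top to the 3 prefix matches at the bottom, in the 3 comparisons, with genes at an adjusted p of at most 0.05 in red. In mutant against control atrium 23 genes are red, with Sema3a at 2.00 and Epha3 at -2.47 as the extremes. In ventricle against control atrium 39 are red, and in mutant atrium against ventricle 27, and the 3 panels share arrays in pairs.

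In mutant against control atria the neuropilins and plexins gave differences of at most 0.71 in size through the probe sets used. Nrp1, the co-receptor of Sema3a and also of VEGF, stood at 12.48, 12.42 and 12.35 in mutant atria, 12.04, 12.11 and 12.01 in ventricles, and 11.88, 11.66 and 11.56 in control atria. The mutant atria were the highest group without overlap, 1.64-fold above control atria (0.71 ± 0.08, adjusted p = 0.00061) and 0.36 ± 0.08 above ventricles on the log2 scale (adjusted p = 0.00902). Of its 4 probe sets 3 were called higher (0.71, 0.82 and 1.0), and the fourth gave 0.40 ± 0.13 (adjusted p = 0.0639). With the hepatocyte covariate Nrp1 gave 1.15 (adjusted p = 0.0594).

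Nrp2, which serves Sema3f and is abundant on lymphatic and venous endothelium, did not follow Nrp1. It read 8.08, 8.49 and 8.26 in mutant atria, 8.87, 8.75 and 9.15 in ventricles, and 8.53, 8.46 and 8.25 in control atria. The atrial groups overlapped (-0.14 ± 0.13, adjusted p = 0.495) and the ventricles lay above both, by 0.51 ± 0.13 over control atria (adjusted p = 0.00993).

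Of 9 plexins, 2 rose, 1 fell and 6 did not pass in mutant against control atria. Plxnb2, a receptor of class 4 semaphorins, was the clearest rise: it stood at 10.33, 10.34 and 10.21 in mutant atria, 9.67, 9.72 and 9.78 in ventricles, and 9.56, 9.75 and 9.62 in control atria. Both control tissues overlapped (0.08 ± 0.07, adjusted p = 0.375), and the mutant atria were above them by 0.65 ± 0.07 (adjusted p = 0.000436, against control atria) and 0.57 ± 0.07 (adjusted p = 0.000297, against ventricles). Plxna2, which pairs with neuropilins in the Sema3c response, read 8.85, 8.89 and 8.90 in mutant atria, 9.04, 9.46 and 9.69 in ventricles, and 8.43, 8.37 and 8.46 in control atria. Its rise of 0.46 ± 0.14 (adjusted p = 0.0451) ended on leaving out any 1 of the mutant or control atrium arrays (adjusted p = 0.0758 to 0.123) or ventricle replicate 2 (0.0601). The ventricles exceeded control atria by 0.98 ± 0.14.

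Plxnc1, the receptor of Sema7a, set the chambers apart most among the plexins. It stood at 9.18, 8.77 and 8.80 in mutant atria, 7.03, 6.76 and 6.85 in ventricles, and 9.50, 9.48 and 9.44 in control atria. Ventricles were 6.04-fold below control atria (-2.59 ± 0.11, adjusted p = 2.52e-07), and mutant atria fell by 0.56 ± 0.11 (adjusted p = 0.00981), so they kept a level 2.04 ± 0.11 above the ventricles. Of its 6 probe sets, 1 dim one was called in the opposite direction in ventricle against control atrium (0.44 ± 0.11).

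Plxna4, a Sema3a receptor of sympathetic neurons, was lower in ventricles (8.12, 8.02 and 8.12) than in control atria (8.48, 8.62 and 8.72), by 0.52 ± 0.07 in size. In mutant atria it read 8.52, 8.43 and 8.51 (-0.12 ± 0.07, adjusted p = 0.287). Its dimmer probe set gave larger differences, with a fall of 0.73 ± 0.15 in mutant atria (adjusted p = 0.0105) and -1.99 ± 0.15 in ventricle against control atrium. Plxnd1, the endothelial receptor of Sema3e, read 9.86, 9.87 and 9.87 in mutant atria, 10.08, 10.19 and 10.15 in ventricles, and 9.95, 9.96 and 9.90 in control atria. It was not called in mutant against control atria (-0.07 ± 0.06) and was 0.20 ± 0.06 higher in ventricles (adjusted p = 0.0144), a call that ended with the Y-linked level as a covariate (0.20, adjusted p = 0.0749). The other plexins (Plxna1, Plxna3, Plxnb1, Plxnb3) gave -0.01 to 0.20 in mutant atria and -0.49 to 0.37 in ventricle against control atrium. Plxnb1 in mutant atria (0.20 ± 0.06, adjusted p = 0.0525) passed with quantile normalisation (0.018), median centring (0.029) and without the dimmest 40% of genes (0.0298). A robust fit with an intensity trend also called Plxnb1 (0.0473), but 0 of 9 fits without 1 array did. The Plxna3 chamber call (-0.30 ± 0.11, adjusted p = 0.0491) held in 1 of those 9 fits.

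The ephrins and Eph receptors held changes in both directions. Of 5 ephrin-A genes 1 rose and 1 fell in mutant atria, and of 3 ephrin-B genes 1 fell. Efnb1, an ephrin-B gene, was not called through the probe set used (-0.17 ± 0.08, adjusted p = 0.188), but both its other probe sets were lower (-0.62 ± 0.12, adjusted p = 0.00955, and -0.25 ± 0.06, 0.027), as was the mean of all (-0.35, 0.00738). Efna1, a ligand of Epha2 that is inducible in endothelium, read 8.11, 8.10 and 8.09 in mutant atria, 8.03, 8.26 and 8.42 in ventricles, and 8.98, 8.75 and 8.95 in control atria. It fell by 0.79 ± 0.10 in mutant atria (adjusted p = 0.000939), to the range of the ventricles (-0.13 ± 0.10, adjusted p = 0.34), and its second probe set fell by 0.76 ± 0.10. Efna5, a ligand of Epha3 and Epha4, was higher in ventricles (9.34, 9.25 and 9.25) than in mutant atria (8.46, 8.58 and 8.60) and control atria (8.31, 8.20 and 8.26). The difference between chambers was 1.02 ± 0.07 (adjusted p = 2.24e-06), and the small rise in mutant atria (0.29 ± 0.07, adjusted p = 0.0157) ended on leaving out mutant replicate 2, mutant replicate 3 or control atrium replicate 2 (adjusted p = 0.0602, 0.0627 and 0.0593).

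Efnb3, a transmembrane ligand that binds Epha4 among others, was the ephrin with the largest change, and against the order of the chambers. It stood at 8.14, 8.26 and 8.42 in mutant atria, 10.26, 10.51 and 10.12 in ventricles, and 9.61, 9.17 and 9.32 in control atria. The mutant atria were the lowest group and the ventricles the highest, without overlap. Efnb3 was 2.13-fold lower in mutant than in control atria (-1.09 ± 0.13, adjusted p = 0.000725) and 4.06-fold lower than in ventricles (-2.02 ± 0.13, adjusted p = 7.04e-06), while ventricles exceeded control atria by 0.93 ± 0.13. It has a single probe set, so no other could be set beside it.

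Efnb2 and Ephb4 form the ligand and receptor pair that marks arteries and veins. Efnb2 read 9.74, 9.88 and 10 in mutant atria, 9.36, 9.26 and 9.23 in ventricles, and 10.05, 10.11 and 9.90 in control atria. The atrial groups overlapped (-0.15 ± 0.09, adjusted p = 0.248) and the ventricles lay below both. Ephb4 read 8.76, 8.56 and 8.49 in mutant atria, 8.10, 8.08 and 8.01 in ventricles, and 8.87, 8.86 and 9.11 in control atria. Its fall of 0.34 ± 0.09 in mutant atria (adjusted p = 0.033) did not pass without any 1 of 5 of the 6 atrial arrays (adjusted p = 0.0527 to 0.113) or with quantile normalisation (0.0816), whereas the ventricles lay 0.88 ± 0.09 below control atria (adjusted p = 5.31e-05). The 7 endothelial markers averaged 9.70 to 9.88 in mutant atria, 9.34 to 9.49 in ventricles and 9.97 to 10.06 in control atria, and their part in this result was not tested.

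Of 9 EphA receptors, 2 fell and 7 did not pass in mutant against control atria. Epha3, which acts in the cushions that form the atrioventricular valves and septa, had the largest fall of all 63 genes. It stood at 5.65, 5.18 and 5.84 in mutant atria, 4.23, 4.10 and 4.09 in ventricles, and 8.43, 7.64 and 8.02 in control atria. All groups were apart, with the mutant atria between. It was 5.55-fold lower in mutant than in control atria (-2.47 ± 0.20, adjusted p = 7.07e-05). The ventricle values lie below the 25th percentile of all probe sets on their arrays (4.76 to 4.92 over the arrays), so that the size of the difference from control atria there (-3.89 ± 0.20) is uncertain. A second probe set fell by 2.32 ± 0.18 in mutant atria, while 2 dim ones gave -0.43 and -0.23 and did not pass. In ventricle against control atrium these other probe sets gave -2.84, -0.42 and -0.04, and the last was not called.

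Epha4, a receptor for both ephrin classes, read 11.13, 10.45 and 11.04 in mutant atria, 10.47, 10.56 and 10.35 in ventricles, and 11.70, 11.58 and 11.66 in control atria. Mutant replicate 2 lay within the ventricles and the other mutant arrays between the control tissues. The difference of mutant atria from ventricles was not called (0.41 ± 0.15, adjusted p = 0.066). It was called higher through the 4 other probe sets (0.54 to 0.84) and their mean with the one used (0.60, adjusted p = 0.03). Leaving out mutant replicate 2 also gave a call (0.62, adjusted p = 0.000846), as did the Y-linked level as a covariate (0.61, 0.0372). Epha4 fell by 0.77 ± 0.15 (adjusted p = 0.00924), and all 5 of its probe sets were called lower, at -0.76 to -1.0. The other EphA genes gave -0.07 to 0.28 in mutant atria.

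All 4 EphB receptors measured were called in mutant against control atria, 2 higher and 2 lower, where 17.5% of all genes were called. All 4 were also called between ventricles and control atria, where 52.8% of all genes were. The fall of Ephb4 in mutant atria held in 4 of the 9 fits without 1 array. Ephb1, a receptor of ephrin-B ligands, stood at 7.80, 7.83 and 7.75 in mutant atria, 8.38, 9.28 and 9.08 in ventricles, and 6.46, 6.49 and 6.30 in control atria. The mutant atria lay between, 2.59-fold above control atria (1.37 ± 0.19, adjusted p = 0.00145) and below ventricles (-1.12 ± 0.19, adjusted p = 0.00159). Ephb3 stood at 8.42, 8.39 and 8.37 in mutant atria, 8.41, 8.04 and 8.33 in ventricles, and 7.41, 7.72 and 7.48 in control atria. It rose by 0.85 ± 0.11 (adjusted p = 0.000939) into the range of the ventricles, from which it did not differ by the test (0.13 ± 0.11, adjusted p = 0.392). Ephb6, a receptor without kinase activity, fell by 0.41 ± 0.09 (adjusted p = 0.014), from a low level that is among the dimmest 40% of genes, and was lost without mutant replicate 3 (adjusted p = 0.0548). Each EphB gene has 1 probe set.

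**Figure D3:**
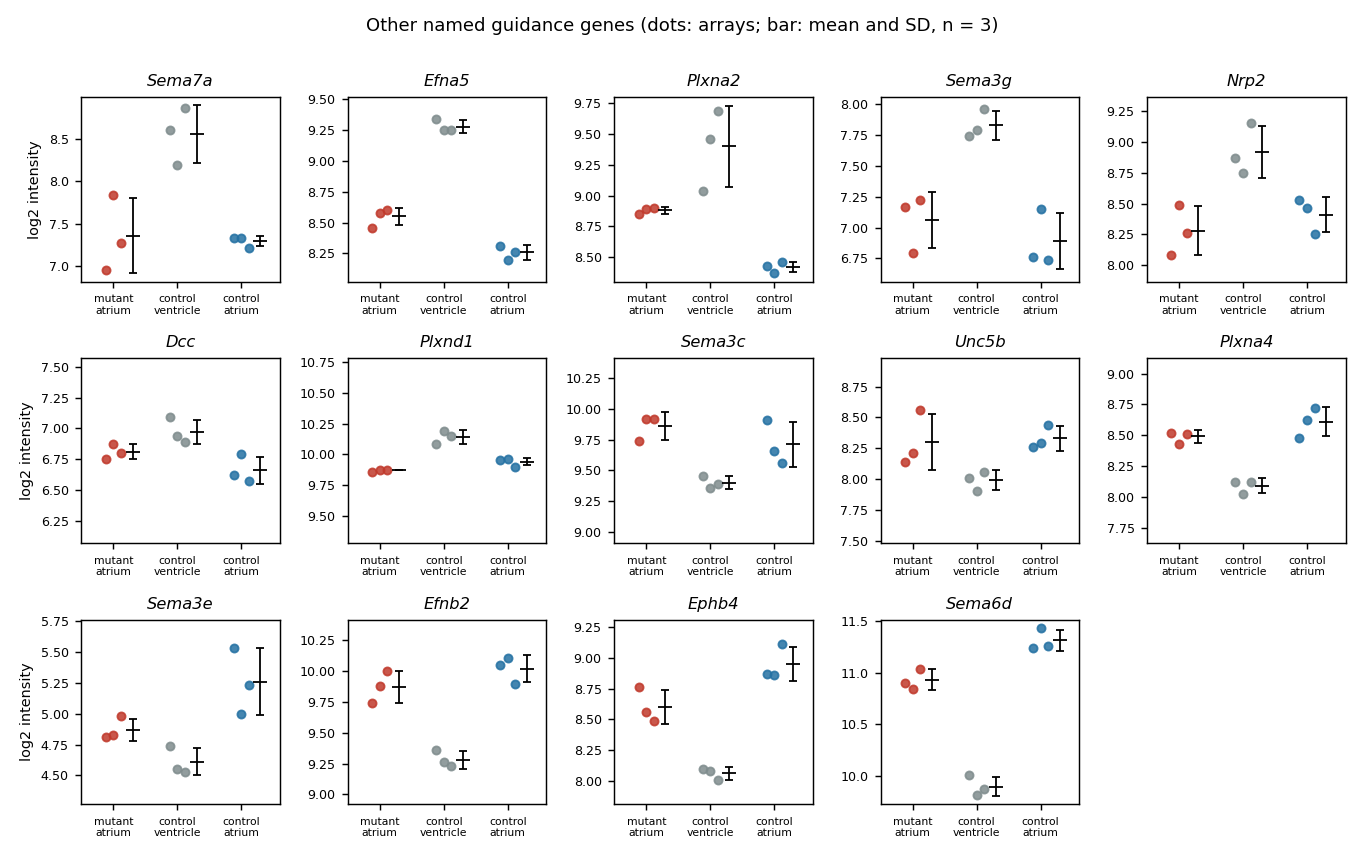
Log2 intensity on each array (dots) of the other guidance genes named by rule, ordered by the difference between control ventricle and control atrium, with the mean and SD of 3 arrays as a bar. Each panel has its own scale. Sema7a, with ventricles at 8.19 to 8.86 and control atria at 7.22 to 7.34, comes first, and Sema6d, with ventricles at 9.82 to 10.01 and control atria at 11.24 to 11.43, last.

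Among the netrins, Ntn1 rose in mutant atria. It read 12.24, 12.41 and 11.95 in mutant atria, 11.16, 11.28 and 11.09 in ventricles, and 11.55, 11.44 and 11.59 in control atria. The mutant atria were the highest group without overlap, 1.6-fold above control atria (0.67 ± 0.11, adjusted p = 0.00361) and 1.02 ± 0.11 above ventricles on the log2 scale. The smaller gap between ventricles and control atria (-0.35 ± 0.11, adjusted p = 0.026) ended on leaving out control atrium replicate 1 or 3 or ventricle replicate 1 or 3 (adjusted p = 0.0644 to 0.0793), and averaged over both probe sets it was -0.01. Its second, dim probe set gave 0.56 ± 0.18 in mutant atria (adjusted p = 0.0622). Ntn4, a netrin of basement membranes, read 10.29, 9.50 and 9.56 in mutant atria, 9.02, 9.61 and 9.39 in ventricles, and 9.33, 9.45 and 9.40 in control atria, with 1 high mutant array and no call (0.39 ± 0.21, adjusted p = 0.226). Ntn3 lay below the 25th percentile on every array.

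Of the 5 netrin receptors limma called 0 in mutant against control atria, and 0 had an unadjusted p under 0.05 (0.0963 to 0.959). Dcc, the attractive receptor, read 6.75, 6.87 and 6.80 in mutant atria, 7.09, 6.94 and 6.89 in ventricles, and 6.62, 6.79 and 6.57 in control atria (0.15 ± 0.08 in mutant against control atria). Ventricles were above control atria for Dcc (0.32 ± 0.08, adjusted p = 0.00944), and its other, dim probe sets were not called there. Unc5b, the repulsive receptor of endothelium, read 8.14, 8.21 and 8.56 in mutant atria, 8.01, 7.90 and 8.06 in ventricles, and 8.26, 8.29 and 8.44 in control atria (-0.03 ± 0.11 in mutant against control atria). Ventricles were below control atria for Unc5b (-0.34 ± 0.11, adjusted p = 0.0271), in 5 of the 9 fits without 1 array. Unc5c was higher in mutant atria than in ventricles (0.41 ± 0.13, adjusted p = 0.0368), also in 5 of those 9 fits. Neo1, a further netrin receptor outside the 63 genes, gave -0.28 ± 0.11 in mutant against control atria and was not called there either (adjusted p = 0.128).

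**Figure D4:**
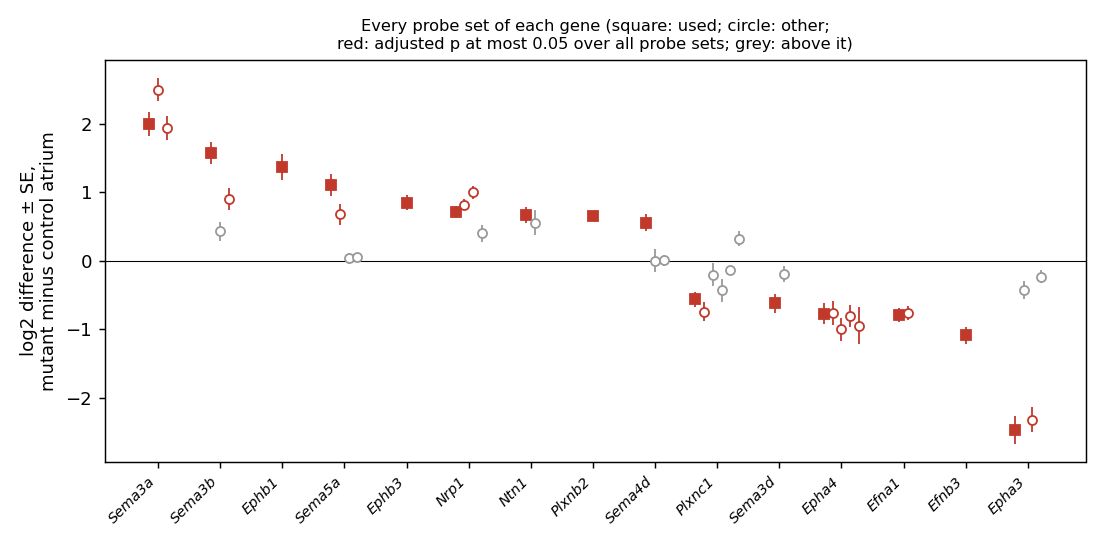
Log2 difference ± SE in mutant against control atrium for each probe set of the 15 guidance genes with the largest called changes. Squares are the probe set used and circles the others, and red marks an adjusted p of at most 0.05 over all probe sets. The 3 probe sets of Sema3a lie at 1.94 to 2.50 and the 5 of Epha4 at -1.0 to -0.76, while the other probe sets of Sema4d lie at 0.00 and 0.01.

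Of the 42 guidance genes with over 1 probe set, 16 were called in mutant against control atria through the probe set used. A further probe set was called the same way for 9 of the 16, no other was called for 7, and 0 were called the opposite way. A further 4 genes were called only through a probe set that was not used: Efnb1 and Plxna4 lower, and Efna3 and Sema6c higher. In ventricle against control atrium 29 were called, with a further call the same way for 21, and the opposite way for 2, Sema4d and Plxnc1. Of all 63 genes, 21 lay among the dimmest 40% of genes, and 3 of these were called in mutant against control atria (Epha3, Ephb6 and Sema4f). Epha6, Ntn3, Plxna4os1, Unc5cl and Unc5d lay below the 25th percentile on all 9 arrays, so that a change in them could be missed.

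Across the chambers, 39 of the 63 genes (61.9%) differed between control ventricles and control atria, 20 higher and 19 lower, while 52.8% of all genes were called (29.2% higher, 23.6% lower). At least 2-fold differences were found for 4 higher genes (Ephb1, Sema3b, Sema7a, Efna5) and 7 lower ones (Epha3, Plxnc1, Sema3d, Sema6d, Epha4, Sema5a, Sema3a), against 2.31% and 4.83% of all genes. The groups did not overlap for 42 of the 63, and for 59.7% of all genes. With the Y-linked level as a covariate 31 genes were called: Epha8, Epha10, Nrp1, Ntn1, Plxna1, Plxna3, Plxnd1, Sema3c and Unc5b lost their calls and Epha7 gained one. After median centring 30 were higher and 14 lower, since that scaling moved the median difference of all genes by 0.136. Mutant atria differed from ventricles in 27 genes (42.9%), 16 higher and 11 lower, while 32.7% of all genes were called (16% higher, 16.7% lower). At least 2-fold differences were found for 7 higher and 3 lower genes, against 3.4% and 1.08% of all genes, and the groups did not overlap for 37 of the 63, and for 47.4% of all genes. With the Y-linked level as a covariate Plxna2 and Sema6c lost their calls in this comparison. Epha4 (0.61, adjusted p = 0.0372) and Ntn4 (0.76, 0.039) gained one. After median centring, which moved the median by 0.101 in size (-0.101), 15 were higher and 19 lower, and after quantile normalisation 15 and 16. The 3 comparisons share arrays in pairs, so their calls are not independent of each other.

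A list of 106 other genes of guidance signalling (further ligands and receptors, co-receptors and intracellular effectors) had 101 measured members. It was drawn up with earlier results of these data known, so its share beside that of all genes is a description only. In mutant against control atria 25 were called, 11 higher and 14 lower (24.8%, beside 17.5% of all genes), with a median difference of 0.04. By role, 1 of 14 further ligands rose and 2 fell, 1 of 8 further receptors rose and 2 fell, 3 of 19 co-receptors rose and 2 fell, and 6 of 60 effectors rose and 8 fell. The count dropped to 11 without control atrium replicate 2, 14 without mutant replicate 2 and 16 without mutant replicate 1, mutant replicate 3 or control atrium replicate 3. Leaving out control atrium replicate 1 gave 17.

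The 8 of these genes with the smallest p included the secreted repellent Slit2 and its receptor Robo1. Slit2 read 12.62, 12.45 and 12.43 in mutant atria, 7.70, 8.17 and 8.05 in ventricles, and 8.55, 8.13 and 8.49 in control atria, far above both control tissues in the mutants (4.11 ± 0.14 over control atria, adjusted p = 4.11e-07). Robo1 rose by 1.09 ± 0.21 (adjusted p = 0.00724) and the adhesion protein Cntn2 by 1.57 ± 0.24 (adjusted p = 0.00252). Among effectors, Sipa1l1, a regulator of Rap GTPases, rose by 0.93 ± 0.10, Ablim3, an actin-binding protein, by 0.73 ± 0.10, and Dpysl4, of the collapsin response mediator family, by 0.48 ± 0.09. Lrrc4c, the receptor of netrin-G1, fell by 1.44 ± 0.11 (adjusted p = 4.96e-05), and Flrt1, of a family of Unc5 ligands, by 1.21 ± 0.11 (adjusted p = 9.82e-05). Slit2, Sipa1l1, Cntn2, Robo1 and Ablim3 were also called above the ventricles, by 4.53, 1.24, 2.58, 1.71 and 0.37, and each had its highest mean in mutant atria. Flrt1, below control atria, was above the ventricles by 0.51.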

How the data were processed

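Total RNA from 3 mutant right atria, 3 control ventricles and 3 control right atria was hybridised to Affymetrix arrays. The authors deposited intensities made by RMA (background correction, normalisation between arrays and summary per probe set), per the submitters' processing notes, 1 value per probe set and array on a linear scale. RMA's version is not given in the sources used here. It compresses differences of dim probe sets.

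From 45101 probe sets, 64 controls, 932 that name more than 1 gene and 9160 that name none were set aside. Log2 of the 34945 others was taken, and each of 18193 genes was represented by its probe set with the highest mean over all arrays. The 3 groups were fitted with lmFit and eBayes (limma 3.58.1, R 4.3.3; 6 residual and 3.48 prior degrees of freedom), and p-values were adjusted by Benjamini-Hochberg over all genes. The number of arrays limits the precision (median SE 0.0879). The procedure was tested on simulated data.

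Genes were named if called with a log2 difference of at least 0.5 in size in mutant against control atria, if among the 8 largest other chamber differences, or if in a fixed set of cardiac cues and receptors. Other class 4 and EphB calls were chosen after their values were seen. Members and lists were chosen with earlier results of these data known. Alternatives covered scaling, probe set choice, dim genes, covariates, thresholds and single arrays.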

Additional observations from a re-analysis of the deposited data

How the results depend on the processing

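In mutant against control atria, 23 guidance genes and 25 other genes of guidance signalling were called. With the hepatocyte covariate these counts were 0 and 1, at an adjusted p of at most 0.01 they were 15 and 9, and with a 1.5-fold minimum 13 and 8. In ventricle against control atrium (39 and 59 called) the counts were 9 and 7 with the hepatocyte covariate and 20 and 19 with the 1.5-fold minimum, and the second list gave 32 at 0.01. In mutant atrium against ventricle (27 and 36) the 1.5-fold minimum gave 15 and 17. Leaving out 1 array at a time gave 18 to 23 and 11 to 23 in mutant against control atria, 36 to 39 and 45 to 60 in ventricle against control atrium, and 24 to 28 and 29 to 38 in mutant atrium against ventricle. Of the 23 calls, 16 held in all 9 of these fits. With the hepatocyte covariate the sign turned for Sema3d in mutant against control atria (0.18), and in ventricle against control atrium for Epha10 (-0.08), Sema3c (0.21), Sema6a (-0.13) and Sipa1l1 (0.06). Averaging all probe sets turned Plxna3 in ventricle against control atrium (0.01) and Sema4d in mutant atrium against ventricle (0.12). The cause was not tested. Median centring split the second list 38 higher to 22 lower in ventricle against control atrium (19 and 40 without it) and 22 to 22 in mutant atrium against ventricle (29 and 7 without it). The deviations of same-numbered arrays had correlations of -0.102 to 0.125. With 3 arrays per group these cannot settle whether such arrays are paired, and the labels name no pairing. With the replicate block 22, 38 and 27 guidance genes were called in the 3 comparisons. Dim probe sets limit what could be seen.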
